A study of Arabidopsis thaliana with 15 samples.

Results

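The regions described here are 43942 of the 397157 consecutive 300-bp windows of the 5 nuclear chromosomes of Arabidopsis (11.1%) in which CHH methylation (H is A, C or T) lay mostly on CAA and CTA cytosines, called CAA/CTA-biased windows. They were chosen in seeds after cold stratification, with the calls of the 3 libraries of that time point summed: at least 100 CHH calls, a CHH level of 10% to below 50%, at least 30 calls each at CAA or CTA and at the other CHH cytosines, and a level at CAA and CTA of at least 2.5 times that at the other CHH cytosines. Of 75987 windows that passed the call and level limits, 57.8% also passed the ratio. Windows within the same call and level limits but with a ratio below 1.5 (18231, called low-bias) served for comparison, and 13814 windows lay between. Low-bias windows were not matched to the CAA/CTA-biased windows in CHH level within these limits, and their mean level was higher.

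The study followed germination of wild-type Col-0 with MethylC-seq, bisulfite sequencing in which unmethylated cytosines are read as thymine, at 5 time points with 3 biological replicate libraries each. Dry seed had spent 14 days in darkness (dry seed, 0 h). Stratified seed then had 48 h of cold at 4 °C without light (48 h S). Continuous light at 22 °C followed for 6 h (6 h SL) or 24 h (24 h SL), and after 48 h of it the material is called seedlings here (48 h SL). The tissue is labelled seed for dry seed, seedling for the last time point and germinating seed for those between, and all seed came from a single batch of plants. A level is an average over all cells of whole seeds or seedlings, so a change in the make-up of the tissue and a change within cells cannot be told apart.

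In plants, CG methylation is copied at replication by MET1, CHG methylation is maintained by CMT3, and CHH methylation is kept by separate routes. CMT2, a chromomethylase that binds nucleosomes carrying histone H3 lysine 9 methylation, acts within long transposons of heterochromatin and prefers CAA and CTA. DRM2 is guided by small RNAs to short transposons and transposon edges and shows much less preference among CHH cytosines. The bias at CAA and CTA is therefore commonly read as a mark of CMT2, although no CMT2 mutant was part of this series and the enzyme at each window was not tested.

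The 8 named windows were picked as extremes of depth or of the per-window test, so they are examples and need not be typical of the class. The sequences are those of the plus strand of TAIR10.1 (RefSeq), written 5′ to 3′. Capital C marks a cytosine followed by AA or TA on the plus strand, and capital G marks the partner base of such a cytosine on the minus strand. Windows 1 to 5 had the highest minimum depth on chromosomes 1 to 5, windows 2, 6 and 7 had the lowest adjusted p for seedlings against dry seed, and window 8 was the 1 window called higher in seedlings.
Window 1: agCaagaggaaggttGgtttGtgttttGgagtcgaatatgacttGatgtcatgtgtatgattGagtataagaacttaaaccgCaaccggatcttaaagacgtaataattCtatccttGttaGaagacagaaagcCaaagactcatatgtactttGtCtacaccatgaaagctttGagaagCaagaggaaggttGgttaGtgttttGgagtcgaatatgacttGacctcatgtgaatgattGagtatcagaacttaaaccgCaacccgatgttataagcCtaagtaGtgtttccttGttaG
Window 2: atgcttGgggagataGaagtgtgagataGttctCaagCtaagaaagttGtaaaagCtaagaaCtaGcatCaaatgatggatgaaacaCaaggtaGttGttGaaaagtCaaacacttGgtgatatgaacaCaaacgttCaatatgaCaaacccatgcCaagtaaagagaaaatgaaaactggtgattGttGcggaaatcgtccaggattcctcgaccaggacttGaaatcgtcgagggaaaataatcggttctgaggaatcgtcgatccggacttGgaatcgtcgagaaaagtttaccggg
Window 3: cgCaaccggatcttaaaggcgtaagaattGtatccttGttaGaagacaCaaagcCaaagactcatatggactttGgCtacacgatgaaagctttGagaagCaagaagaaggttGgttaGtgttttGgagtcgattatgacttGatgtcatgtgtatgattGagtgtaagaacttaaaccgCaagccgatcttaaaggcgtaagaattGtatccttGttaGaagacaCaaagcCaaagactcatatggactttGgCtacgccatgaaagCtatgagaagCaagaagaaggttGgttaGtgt
Window 4: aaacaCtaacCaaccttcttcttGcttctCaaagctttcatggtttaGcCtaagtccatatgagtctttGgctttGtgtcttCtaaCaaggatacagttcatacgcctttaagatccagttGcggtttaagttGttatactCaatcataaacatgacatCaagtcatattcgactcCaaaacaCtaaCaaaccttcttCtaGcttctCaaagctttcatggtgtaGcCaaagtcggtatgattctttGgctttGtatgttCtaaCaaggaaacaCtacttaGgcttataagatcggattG
Window 5: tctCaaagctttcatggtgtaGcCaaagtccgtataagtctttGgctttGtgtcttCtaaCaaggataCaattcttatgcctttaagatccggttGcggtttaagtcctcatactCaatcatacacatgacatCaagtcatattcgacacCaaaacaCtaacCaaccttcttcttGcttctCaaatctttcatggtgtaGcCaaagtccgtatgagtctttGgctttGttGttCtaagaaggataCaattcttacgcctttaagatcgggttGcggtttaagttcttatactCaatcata
Window 6: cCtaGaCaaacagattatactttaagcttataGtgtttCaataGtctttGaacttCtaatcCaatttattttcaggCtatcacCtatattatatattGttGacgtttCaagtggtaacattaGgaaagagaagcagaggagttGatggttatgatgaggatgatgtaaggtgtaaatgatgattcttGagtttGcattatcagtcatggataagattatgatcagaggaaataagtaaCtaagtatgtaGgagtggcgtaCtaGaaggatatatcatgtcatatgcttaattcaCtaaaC
Window 7: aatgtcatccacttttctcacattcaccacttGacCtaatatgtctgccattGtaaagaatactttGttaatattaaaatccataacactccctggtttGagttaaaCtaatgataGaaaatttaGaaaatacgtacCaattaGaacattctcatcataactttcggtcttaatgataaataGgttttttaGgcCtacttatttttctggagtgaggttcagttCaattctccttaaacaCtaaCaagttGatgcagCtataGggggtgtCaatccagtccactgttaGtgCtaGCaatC
Window 8: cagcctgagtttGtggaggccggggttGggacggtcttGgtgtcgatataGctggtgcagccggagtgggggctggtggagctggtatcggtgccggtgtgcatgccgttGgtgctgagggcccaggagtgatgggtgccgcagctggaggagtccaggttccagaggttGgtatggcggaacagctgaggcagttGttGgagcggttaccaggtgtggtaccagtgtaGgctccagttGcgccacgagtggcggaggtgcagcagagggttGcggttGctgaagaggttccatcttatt

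Windows 1, 3, 4 and 5 are copies of 1 tandem repeat. Window 3 (chr3:13590001-13590300, in no annotated gene) matched itself at a shift of 178 bp over 95.9% of 122 bases, window 1 (chr1:15083401-15083700, overlapping an exon of AT1G40104, annotated as protein-coding) over 86.9%, and window 4 (chr4:3951001-3951300, in no annotated gene) over 84.4%. Window 5 (chr5:11724301-11724600, in no annotated gene) had its best match at a shift of 177 bp, with 65.0% identity. The 4 windows shared from 11 to 46 sequences of 24 bases with each other on either strand. Arabidopsis centromeres are built of long arrays of a tandem satellite. Among all CAA/CTA-biased windows, 876 shared at least 1 sequence of 24 bases with these 4 windows. Their CHH level was 14.6% ± 1.84 in seedlings and 19.8% ± 0.327 in dry seed (SD, n = 3 libraries each). It was 15.4% ± 1.26 in seedlings and 21.1% ± 0.281 in dry seed in the other 43066 CAA/CTA-biased windows. The averages of the class were thus nearly the same without these 876 windows. Copies too diverged to share 24 bases may remain among the others. Reads of near-identical copies cannot be placed with certainty, and windows 1 to 5 held between 1676 and 7828 CHH calls per library, against a median of 148 in the shallowest and 750 in the deepest library over all CAA/CTA-biased windows.

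Window 2 (chr2:9901-10200) overlapped an exon of AT2G00340, an uncharacterized non-coding RNA, 134 bp from the protein-coding AT2G01023. It shared a sequence of 24 bases with 7 other windows, 3 of them CAA/CTA-biased. Its CHH level was 17.7%, 19.87% and 19.2% in the 3 libraries of dry seed, 19.5%, 19.95% and 20.7% after stratification, 20.9%, 20.2% and 19.8% after 6 h of light, 18.2%, 19.02% and 17.9% after 24 h of light, and 14.4%, 12.4% and 14.0% in seedlings. The libraries of seedlings lay below all others (adjusted p = 1.9e-06 against dry seed in the per-window test described further on). At CAA and CTA its summed level was 32.8% in seedlings and 45.2% in dry seed, and at the other CHH cytosines 5.73% and 8.25% at these times. Windows 1, 3 and 5 also fell by 3.14, 3.17 and 3.85 points in the calls summed per time point (adjusted p = 0.037, 0.0019 and 0.0010). Window 4 did not pass the test (difference -3.04 points, adjusted p = 0.073), and its highest level of all was the 15.9% of 24 h SL replicate 1.

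The 2 windows with the lowest adjusted p were of another kind than the repeats. Window 6 (chr2:932101-932400) stood alone, without an adjoining CAA/CTA-biased window, 2387 bp from the nearest gene, AT2G03110. It had 23.8%, 22.5% and 21.2% CHH methylation in seedlings, against 40.4%, 41.9% and 42.6% in dry seed (adjusted p = 4.3e-07), and 31.4%, 29.6% and 36.4% after 24 h of light. Its ratio after stratification, 2.58, was just inside the rule. Its CG level was 83.2% in seedlings and 80.6% in dry seed, and its CHG level 71.3% and 67.5% at these times. Window 7 (chr1:14280001-14280300) lay in the pseudogene AT1G37999 with 16.1%, 15.7% and 17.4% in seedlings, against 33.7%, 37.0% and 35.1% in dry seed (adjusted p = 9.0e-07). Here CG was lower too, with 83.5% in seedlings and 98.1% in dry seed, as was CHG, with 62.7% and 71.9%.

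Window 8 (chr5:12502201-12502500), in the pseudogene AT5G33252, was the 1 CAA/CTA-biased window called higher in seedlings in the per-window test. It had 18.5%, 7.5% and 12.3% in seedlings, against 4.76%, 1.89% and 6.38% in dry seed (adjusted p = 0.047). The dry-seed libraries were the low ones: the levels were 18.2%, 11.9% and 14.1% after stratification, 14.1%, 8.86% and 7.5% after 6 h of light and 12.5%, 14.8% and 16.1% after 24 h of light. The window has 61.3% GC and 12 CAA or CTA sites, all on the minus strand, and held as few as 24 CHH calls in 1 library. It shared a sequence of 24 bases with 52 other windows, 39 of them CAA/CTA-biased.

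The values the rule used are given as a description only. At 48 h S the median ratio of CAA/CTA-biased windows was 4.19 (quartiles 3.42 and 5.11) and the median CHH level 20.4% (quartiles 17.1% and 24.3%). In 3 windows no methylated call was seen at the other CHH cytosines. Windows just inside the ratio limit (2.5 to below 2.6, 1115 windows) and just outside it (2.4 to below 2.5, 1057 windows) had CHH levels in seedlings of 16.8% and 16.4%, which were 67.1% and 66.1% of their dry-seed levels. At the lower level limit, windows at 10% to below 11% (451) kept 73.3% and windows at 9% to below 10% (346) kept 74.1%. Only 29 windows lay at 45% to below 50%, and 10 of the same ratio at 50% to below 55%.

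The bias was measured again in libraries that the rule did not use. Where both kinds of cytosine had at least 30 calls, a ratio of at least 2.5 was found in 95.3% of the chosen windows in dry seed, 94.9% after 6 h of light, 94.8% after 24 h of light and 98.0% in seedlings, and a ratio below 1.5 in at most 0.0748%. Of the low-bias windows, from 0.137% to 0.626% had a ratio of at least 2.5 at these times. Nearly all chosen windows thus met the ratio limit in both dry seed and seedlings.

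CAA/CTA-biased windows lay in gene-poor chromosome regions. The 48 of 240 bins of 500 kb with the least protein-coding sequence (up to 36.4% of their bases) held 87.5% of them, against 40.9% of the low-bias windows and 20.1% of all windows. In a gene-poor bin a median of 47.5% of windows were CAA/CTA-biased (14.6% to 87.7%), against 0.960% in the other bins (0 to 10.9%). The bin with the highest share, chr4:3000001-3500000, had 1.51% of its bases in protein-coding genes. Chromosomes 2, 3 and 4 had 13.9%, 12.7% and 13.9% of their windows in the class, chromosome 5 had 9.97% and chromosome 1 had 7.17%.

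**Figure D1:**
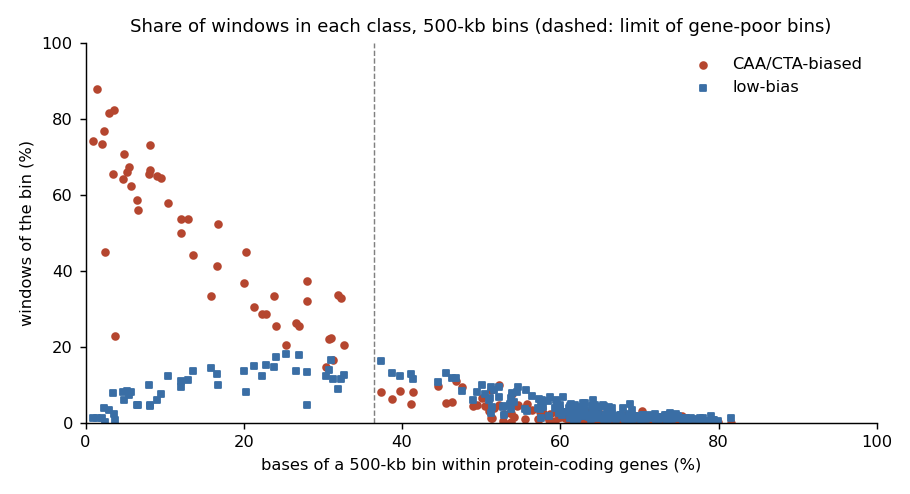
Each 500-kb bin of the 5 chromosomes is drawn by the share of its bases within protein-coding genes (x axis, %) and the share of its windows that are CAA/CTA-biased (red circles) or low-bias (blue squares) (y axis, %), with the limit of gene-poor bins at 36.4% dashed. CAA/CTA-biased windows reach 87.7% of a bin where genes are scarce and stay at or below 10.9% outside the gene-poor bins.

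The annotation placed 61.7% of CAA/CTA-biased windows in pseudogenes, a class that in this annotation includes transposon remains, 6.77% in bodies of protein-coding genes, 1.48% within 1 kb upstream of one and 30.1% elsewhere. Low-bias windows were in pseudogenes in 5.06% and upstream of genes in 25.9%. GC content averaged 40.5% ± 5.77 (SD over windows) in CAA/CTA-biased windows, 27.1% ± 6.07 in low-bias windows and 36.0% ± 7.10 in all windows. The bias did not come with more CAA and CTA: these were 26.4% of the CHH cytosines in CAA/CTA-biased windows, 34.1% in low-bias windows and 28.1% in all. The count of CAA and CTA cytosines per window was alike, 23.0, 21.4 and 22.1, whereas CHG cytosines numbered 17.8 per CAA/CTA-biased window, 7.98 per low-bias window and 15.3 per window in all. GC content, position and class thus varied together, and the share of each in the differences below was not tested.

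The windows were clustered along the chromosomes. They formed 6014 unbroken runs, 84.7% of them lay in runs of at least 5 windows, and 2170 (4.94%) stood alone. The 5 longest runs were chr4:3560101-3612600 (175 windows, 52500 bp, 1 protein-coding gene and 10 pseudogenes), chr2:3865801-3916800 (170 windows, 13 pseudogenes), chr5:12332701-12383400 (169 windows, 11 pseudogenes), chr4:4501801-4545000 (144 windows, 1 protein-coding gene and 7 pseudogenes) and chr3:13607401-13648500 (137 windows, 13 pseudogenes), all in gene-poor bins. The nearest protein-coding gene outside a run was between 21727 and 77303 bp away.

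Depth over the 5 chromosomes ranged from 97238924 to 428839005 calls per library, and the summed level of a context over CAA/CTA-biased windows had a Wilson 95% interval of at most 0.166 points, which covers counting error only. Incomplete conversion and miscalls were estimated from the CHH level in 210112 windows without CG or CHG methylation (below 2% and 1% after stratification). This level was 0.294% ± 0.0492 in dry seed, 0.348% ± 0.0193 after stratification, 0.300% ± 0.0107 after 6 h of light, 0.348% ± 0.0833 after 24 h of light and 0.598% ± 0.220 in seedlings (SD, n = 3). Methylation that these windows gained after stratification would be counted in it, and this was not tested. Within 48 h SL, replicate 1 had higher levels than replicates 2 and 3 in CAA/CTA-biased windows in all contexts. Values without it are given for the CHH and CCG differences only, and the other seedling means include it.

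CHH methylation of the CAA/CTA-biased windows held its level until 6 h of light and then fell. The mean level of the 41634 windows with at least 20 CHH calls in every library was 21.2%, 20.8% and 21.3% in the libraries of dry seed, 20.6%, 21.2% and 21.2% after stratification, 21.8%, 21.04% and 21.5% after 6 h of light, 19.7%, 18.5% and 19.2% after 24 h of light, and 16.8%, 15.0% and 14.4% in seedlings. The libraries of 24 h of light lay below all of the earlier time points, and those of seedlings below all of 24 h of light. The level was 15.4% ± 1.27 in seedlings and 21.1% ± 0.281 in dry seed, a difference of -5.71 points that left 72.9% of the dry-seed level (-6.43 points with 48 h SL replicate 1 left out). At 24 h SL it was 19.2% ± 0.608, -1.93 points from dry seed, and after 6 h of light 21.5% ± 0.398, 0.36 points above it (exact permutation p = 0.1 for seedlings and for 24 h of light, the smallest that 3 against 3 libraries allow, and p = 0.3 after 6 h of light). The 3 libraries of seedlings were lower by 5.19 points on average than the 9 libraries of dry seed and of 6 h and 24 h of light, with stratified seed left out because the rule used it (exact permutation test, 220 arrangements, p = 0.0045, adjusted p = 0.0057 over 5 contexts). This p is the smallest that 220 arrangements allow. The 9 libraries came from 3 time points that were not alike, and each test against them treats these libraries as interchangeable.

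Both kinds of CHH cytosine fell. CAA and CTA had 34.2% ± 1.87 in seedlings and 45.4% ± 0.452 in dry seed, and the other CHH cytosines 7.77% ± 0.662 in seedlings and 11.3% ± 0.165 in dry seed (SD, n = 3). Both differed from the 9 libraries by the same test (-10.1 and -3.25 points, adjusted p = 0.0057 each). In relative terms the other CHH cytosines lost more. The ratio of the levels at CAA and CTA to the other CHH cytosines, calls summed over the windows, was 3.96, 3.98 and 3.92 in dry seed, 3.88, 3.95 and 3.92 after 6 h of light, 3.98, 4.05 and 3.99 after 24 h of light, and 4.18, 4.27 and 4.51 in seedlings. The seedling libraries lay above all 9 others, by 0.13 on the log2 scale (exact permutation p = 0.0045, adjusted p = 0.0045 over 3 ratios). The bias was thus slightly stronger in seedlings, but this was not particular to the class. The median ratio of CAA/CTA-biased windows was 4.55 in seedlings and 4.21 in dry seed. It was 1.29 and 1.16 at these times in low-bias windows, and 2.24 and 1.89 in windows of intermediate ratio. The difference between the classes in this shift was not tested.

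**Figure D2:**
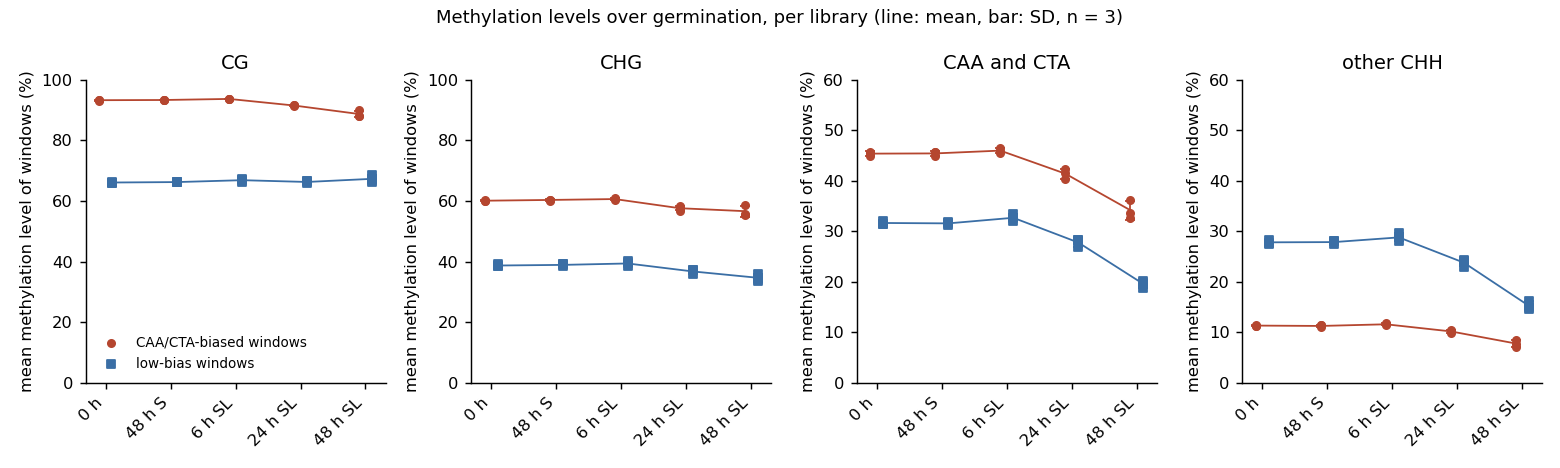
The mean methylation level of windows (y axis, %) is drawn for every library at the 5 time points (x axis) in CAA/CTA-biased windows (red circles) and low-bias windows (blue squares), with the mean as a line and the SD as a bar (n = 3), in separate panels for CG, CHG, CAA and CTA, and other CHH. In CAA/CTA-biased windows CG is near 93% and other CHH near 11% until 6 h of light, and all 4 panels are lower in seedlings, whereas CG of low-bias windows is not.

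CG methylation in these windows was near complete and fell late. The mean level (24358 windows) was 93.4%, 93.0% and 93.3% in dry seed, 93.2%, 93.3% and 93.4% after stratification, 93.8%, 93.7% and 93.5% after 6 h of light, 91.8%, 91.2% and 91.5% after 24 h of light, and 89.98%, 88.1% and 88.0% in seedlings. It was 88.7% ± 1.12 in seedlings and 93.2% ± 0.183 in dry seed, and the groups did not overlap. The difference from the 9 libraries was -4.11 points (adjusted p = 0.0057, exact permutation test). In low-bias windows CG averaged 67.3% ± 1.25 in seedlings and 66.1% ± 0.227 in dry seed, so its mean was not lower there. The difference between the classes in CG was not tested.

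CHG methylation was lower as well. Over 28634 windows it was 60.1%, 59.9% and 60.3% in dry seed, 60.1%, 60.4% and 60.5% after stratification, 61.1%, 60.2% and 60.6% after 6 h of light, 58.3%, 56.8% and 57.7% after 24 h of light, and 58.7%, 55.7% and 55.5% in seedlings. The libraries of 24 h of light and of seedlings overlapped each other, and both lay below dry seed. The mean was 56.6% ± 1.77 in seedlings and 60.1% ± 0.199 in dry seed. The seedling libraries differed by -2.81 points from the 9 others (exact permutation p = 0.018, adjusted p = 0.018), a call lost without 48 h SL replicate 2 or 3 (-2.36 and -2.23 points, adjusted p = 0.073 in each case).

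The CHG contexts did not move together. CAG was 60.7% ± 1.88 in seedlings and 65.1% ± 0.218 in dry seed, and CTG 61.3% ± 1.63 and 66.8% ± 0.170 at these times, with all calls summed. CAG and CTG together differed by -4.12 points from the 9 libraries (exact permutation p = 0.0091, adjusted p = 0.012). CCG, whose inner cytosine can be methylated in the CG context while the outer one is counted here as CHG, was higher in seedlings. It was 38.0%, 37.9% and 38.5% in dry seed, 38.0%, 38.4% and 38.5% after stratification, 38.9%, 37.9% and 38.5% after 6 h of light, 37.8%, 36.3% and 37.2% after 24 h of light, and 43.6%, 39.5% and 39.2% in seedlings. All 3 libraries of seedlings lay above all others, by 2.86 points over the 9 libraries (exact permutation p = 0.0045, adjusted p = 0.0091 over 4 measures, tested after the values were seen). Without replicate 1 the difference was 1.45 points. In low-bias windows CCG was lower, 32.1% ± 1.80 in seedlings and 41.9% ± 0.481 in dry seed.

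Among the CHH contexts, CAA and CTA were alike at 33.3% ± 1.80 and 33.1% ± 1.77 in seedlings, against 44.2% ± 0.451 and 44.3% ± 0.412 in dry seed, which left 75.3% and 74.8% of the dry-seed level. The contexts with the lowest levels kept the least. CCT was 2.91% ± 0.411 in seedlings and 4.56% ± 0.112 in dry seed (63.7% left), and CCC 2.46% ± 0.357 and 4.03% ± 0.1002 (61.0% left). The CHH level in windows without CG or CHG methylation, 0.598% ± 0.220 in seedlings and 0.294% ± 0.0492 in dry seed, was not subtracted. It is a larger part of these low levels than of those at CAA and CTA. CTC, the highest of the others, was 11.6% ± 0.864 in seedlings and 16.7% ± 0.222 in dry seed (69.5% left). In low-bias windows every CHH context kept less, from 52.2% for CCC to 62.2% for CAA.

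**Figure D3:**
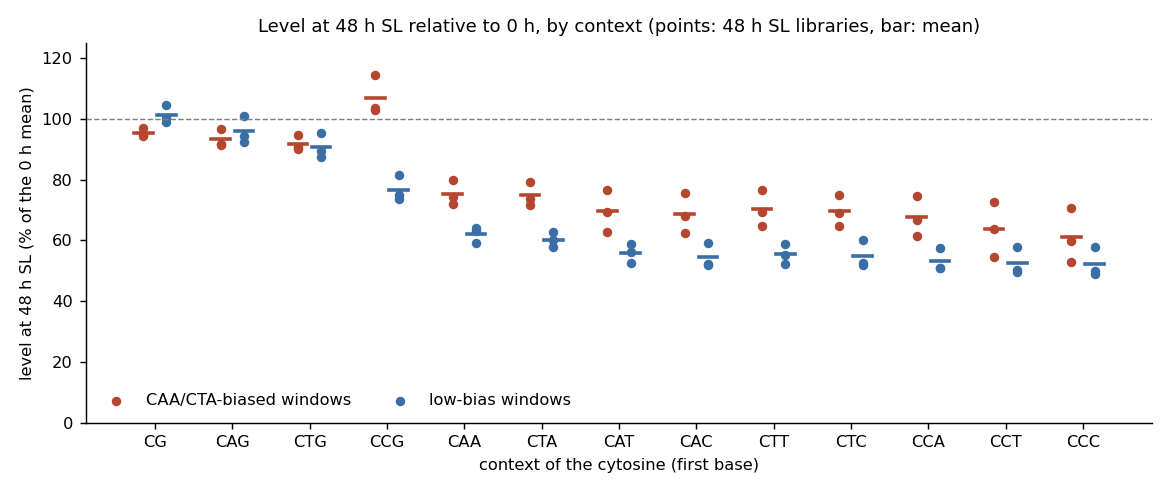
For each cytosine context (x axis), the level in each 48 h SL library is drawn as a share of the mean level in dry seed (y axis, %, dashed line at 100) for CAA/CTA-biased windows (red, left) and low-bias windows (blue, right), with bars for the mean of 3 libraries. CCG lies above 100% in CAA/CTA-biased windows with a mean of 107%, CAA and CTA lie near 75%, and CCC at 61.0% is the lowest.

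The loss was tested window by window on the counts of methylated and unmethylated calls, with a quasi-binomial model over all 15 libraries whose dispersion was moderated with limma's squeezeVar, and p-values adjusted by the Benjamini-Hochberg method over all 384798 tested windows. The filter was on calls, not on levels, and 41634 of 43942 CAA/CTA-biased windows passed it. Of these, 11407 (27.4%) were lower in seedlings than in dry seed at an adjusted p below 0.05, against 10.4% of all tested windows and 13595 of 17970 (75.7%) low-bias windows. Only 1 was higher, against 0.999% of all. The median difference was -5.18 points and 97.1% of the windows had a lower level, with 10% of windows beyond -9.60 points. The median over all tested windows was 0.15 points. A fall of at least 20 points was called in 27 windows (0.0649%), against 1.95% of all tested windows and 2194 of 17970 low-bias windows. The median CHH level of CAA/CTA-biased windows after stratification was 20.4%, so such a fall was out of reach for many of them. In dry seed the mean CHH level was 29.2% in low-bias windows and 21.1% in CAA/CTA-biased windows. These counts therefore do not compare the classes at equal levels. The 3 libraries of seedlings lay below the 3 of dry seed in 22450 windows (53.9%), against 14.9% of all. The count of 11407 was between 6838 and 7499 without 0 h replicate 1, 0 h replicate 3 or 48 h SL replicate 2.

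**Figure D4:**
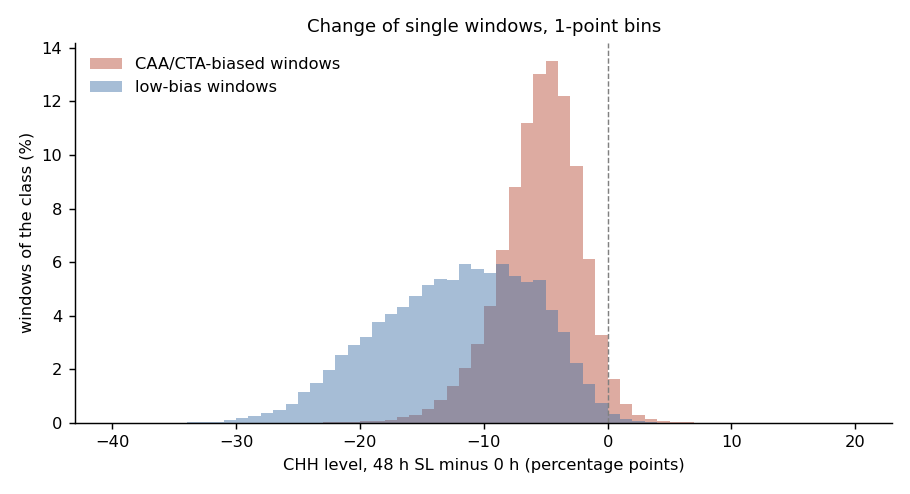
The distribution of the CHH level in seedlings minus that in dry seed (x axis, percentage points, bins of 1 point) is drawn over single windows as a share of each class (y axis, %) for CAA/CTA-biased (red) and low-bias (blue) windows. The red distribution is narrow around its median of -5.18 points, and the blue one is broad around -11.7 points. The classes are not matched for CHH level, which is higher on average in low-bias windows in dry seed.

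The other contrasts gave few calls. At 24 h SL no CAA/CTA-biased window was called lower or higher than in dry seed (0.00416% of all tested windows were lower), although the median difference was -2.00 points, 3950 windows were lower at an unadjusted p below 0.05 (4.1% of all tested windows were) and 180 higher (1.19% of all). A limma fit to arcsine levels called 242 lower after 24 h of light. At 6 h SL no window was called, as over all tested windows (0%), with 673 lower and 1215 higher at an unadjusted p below 0.05, against 1.09% and 1.9% of all tested windows. In CG, 372 of 24358 windows (1.53%) were lower in seedlings than in dry seed and none higher, against 0.17% and 0.0232% of all tested windows. At an unadjusted p below 0.05, 94 were higher, against 2.95% of all. The median difference in CG was -4.24 points, 91.8% of windows were lower, and the libraries did not overlap in 9502 windows (39.0%, against 6.17% of all). In CHG, 101 of 28628 windows (0.353%) were lower and none higher, against 0.218% and 0.00201% of all tested windows, with 3964 lower and 212 higher at an unadjusted p below 0.05, against 3.22% and 1.91% of all. The CG count fell to between 1 and 104 when 0 h replicate 1, 2 or 3 or 48 h SL replicate 2 or 3 was left out, that of CHG to between 34 and 53, and limma called 155 CG and 55 CHG windows. With the dispersion prior taken from all windows no CG and no CHG window was called lower, and the prior behind the counts of 372 and 101 was itself chosen after seeing the data.

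CAA/CTA-biased windows lost less of their CHH methylation than low-bias windows. The ratio of the mean CHH level in CAA/CTA-biased windows to that in low-bias windows was 0.731, 0.719 and 0.721 in dry seed, 0.706, 0.716 and 0.713 after 6 h of light, 0.773, 0.763 and 0.748 after 24 h of light, and 0.951, 0.899 and 0.897 in seedlings. It was higher in seedlings than in the 9 libraries by 0.32 on the log2 scale (exact permutation p = 0.0045, adjusted p = 0.0045). The ratio after 24 h of light already lay above all values of dry seed and 6 h SL. The log2 difference was 0.35 with both classes limited to gene-poor bins, 0.30 with both outside them and 0.31 with both limited to a CHH level of 20% to below 25% after stratification (exact permutation p = 0.0045 each), so it was of like size within either kind of bin and at a matched level after stratification. Against the windows of intermediate ratio it was 0.22 (adjusted p = 0.0045).

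Within CAA/CTA-biased windows the share kept varied by a few points with level and ratio. Windows at 10% to below 15% CHH after stratification kept 74.4% ± 6.69 of their dry-seed level in seedlings, and those at 30% to below 50% kept 70.4% ± 5.04 (SD, n = 3 libraries). Both were measured in the same libraries, and the higher levels kept less in each: 76.0%, 68.9% and 66.3% at 30% to below 50%, against 81.5%, 73.4% and 68.3% at 10% to below 15%, in 48 h SL replicates 1 to 3. Low-bias windows of these levels kept 62.3% ± 5.06 and 56.7% ± 2.61. By ratio after stratification, windows at 2.5 to below 3 kept 68.0% ± 4.92, at 3 to below 4 kept 71.8% ± 5.73, at 4 to below 5 kept 74.4% ± 6.40 and at 5 or more kept 75.7% ± 6.68. The share kept followed the ratio in this order in each of the 3 seedling libraries, with 83.3%, 73.3% and 70.6% at 5 or more and 73.4%, 66.9% and 63.8% at 2.5 to below 3. These differences within libraries were not tested.

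**Figure D5:**
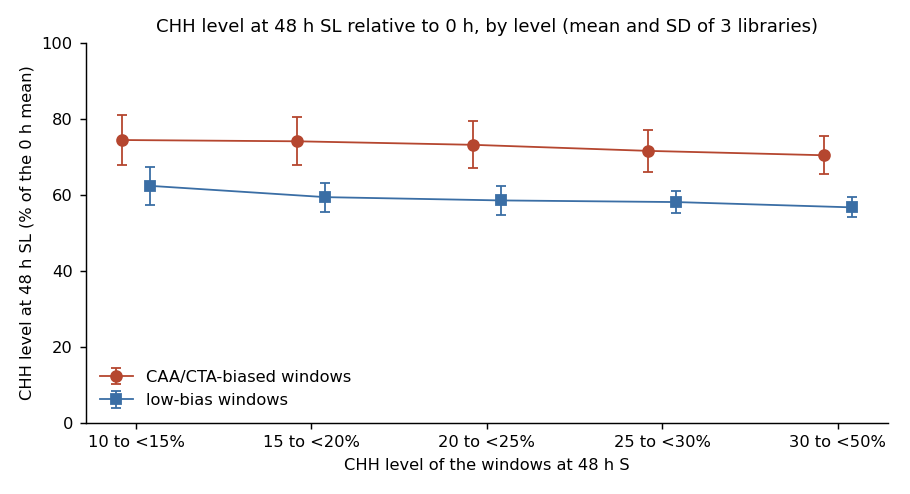
The CHH level in seedlings is drawn as a share of the dry-seed mean (y axis, %) for windows grouped by their CHH level after stratification (x axis) in CAA/CTA-biased (red circles) and low-bias (blue squares) windows, with points for the mean and bars for the SD of 3 libraries. CAA/CTA-biased windows keep between 70.4% and 74.4% and low-bias windows between 56.7% and 62.3%.

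In CHH the share kept was similar across chromosomes and between gene-poor and other bins, and differed more with run length. By chromosome the windows kept 72.5%, 73.2%, 72.8%, 73.2% and 72.9% of their CHH level on chromosomes 1 to 5. Windows in gene-poor bins kept 73.0% ± 6.05 and those elsewhere 72.4% ± 5.84. By annotation the share kept was 73.9% ± 6.30 in pseudogenes, 72.7% ± 6.12 in bodies of protein-coding genes, 69.9% ± 5.29 upstream of genes and 71.2% ± 5.48 elsewhere. Windows in runs of at least 20 kept 73.9% ± 6.22 and windows standing alone 68.0% ± 5.38. Those standing alone kept less in each seedling library: 74.0%, 66.5% and 63.6%, against 80.9%, 71.7% and 69.1% in runs of at least 20, in 48 h SL replicates 1 to 3. This difference was not tested. In CG the difference between seedlings and dry seed was -4.75 points in gene-poor bins and -3.27 points elsewhere, and -4.88 points in runs of at least 20 against -2.10 points in windows standing alone, where the CG level in dry seed was 84.6%.

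Single cytosines showed how the levels were made up. Over the cytosines of these windows with at least 10 summed calls at both times, CAA and CTA sites (704763) had a median level of 33.3% in seedlings (quartiles 20.8% and 46.2%) and 44.4% in dry seed (28.6% and 60%). Sites at 50% or more made up 21.2% in seedlings and 42.9% in dry seed. Only 1.42% and 1.07% of CAA and CTA sites had no methylated call at these times, so nearly every such cytosine had at least 1 methylated call. Of the other CHH sites (1708646), 35.6% in seedlings and 31.0% in dry seed had none, and the medians were 5.26% and 7.69%. CG sites had medians of 90.9% in seedlings and 95% in dry seed, and 99.3% and 99.4% of them were at 50% or more, so the lower CG level was spread over many cytosines rather than a few unmethylated ones. CCG sites had medians of 41.2% in seedlings and 36.4% in dry seed, whereas CAG and CTG sites had 64.9% and 70.0%.

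The longest runs behaved like the class as a whole. In the 175 windows of chr4:3560101-3612600 the summed CHH level was 13.8% ± 1.19 in seedlings and 18.99% ± 0.291 in dry seed (72.8% left), CAA and CTA had 31.0% ± 1.57 and 41.9% ± 0.276 at these times, and 37 of 175 tested windows were called lower, against 27.4% of the class and 10.4% of all tested windows. The 5 runs kept between 71.0% and 75.3% of the CHH level, and in each the libraries of seedlings lay below those of dry seed, as in the class as a whole. CG was 90.2% ± 0.921 in seedlings and 94.9% ± 0.346 in dry seed in the run at chr4:4501801-4545000, the highest of the 5 at both times. The third run lay within AT5G32690, annotated as a transcribed pseudogene of AT2G29880 and overlapped by 191 CAA/CTA-biased windows of the 196 it spans. Its members had 20.07%, 20.01% and 20.13% CHH in dry seed, 18.5%, 17.7% and 18.7% after 24 h of light and 15.9%, 14.1% and 13.6% in seedlings.

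Protein-coding genes rarely held such a window: 872 of 27444 (3.18%) did, against 3506 of 4843 pseudogenes (72.4%), among them 7 of the 16 annotated as Sadhu elements, a family of Arabidopsis retroposons. Of the 10 protein-coding genes with most CAA/CTA-biased windows, some were covered nearly end to end. AT2G08986, an uncharacterized gene, had 27 of its 29 windows in the class, AT5G39770, noted in the annotation as a non-functional pseudogene, had 25 of 28, AT1G27570, of the phosphatidylinositol 3- and 4-kinase family, 23 of 24, and AT2G10440 15 of 15. In others the windows lay between exons. AT1G58602, encoding a disease resistance protein with LRR and NB-ARC domains, had 23 of 67 windows in the class and 2 of these overlapped an exon. AT3G05410, encoding a PsbP family protein of photosystem II, had 16 of 24, none overlapping an exon. AT4G22410 had 19 of 28 and AT4G11373 17 of 20, with 2 and 1 overlapping an exon, and AT2G07240 (17 of 19) and ABCC13 (15 of 28), an ABC transporter, completed the 10.

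CHH levels of the windows in these genes were lower in seedlings. AT1G58602 had 20.2%, 19.002% and 17.5% in seedlings, against 24.2%, 23.9% and 24.97% in dry seed, and 4 of its 22 tested windows were called lower, against 27.4% of the class and 10.4% of all tested windows. AT3G05410 had 16.7%, 16.3% and 15.7% in seedlings, against 19.97%, 18.4% and 19.3% in dry seed, and kept 84.4%, the most of the 10 genes, with 1 of 16 windows called. Its CHG level was 65.5% ± 2.34 in seedlings and 62.9% ± 1.44 in dry seed and its CG level 91.7% ± 0.680 and 90.5% ± 0.900, so neither was lower in the seedling. AT2G10440 kept 68.8%, the least, with 14.5% ± 0.792 in seedlings and 21.1% ± 0.631 in dry seed, and 9 of its 15 windows were called. In all 10 genes the libraries of seedlings lay below those of dry seed, as in the class as a whole, so this does not set them apart. Gene levels pool many windows, and among single tested windows of the genome 14.9% did so. A CAA/CTA-biased window lay in the body or the 1 kb upstream of 4.61% of all protein-coding genes, so a list of 10 genes with none does not stand apart. In CMT2, CMT3, DRM2, MET1, the chromatin remodeller DDM1, the histone H3 lysine 9 methyltransferases SUVH4, SUVH5 and SUVH6, the histone demethylase IBM1 and the DNA demethylase ROS1, no body and no 1 kb upstream region overlapped a CAA/CTA-biased window (0 of 10 genes).

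The lists of differentially methylated regions (DMRs) deposited with the counts, which the authors derived from the same 15 libraries and which give coordinates without a level or direction, met the classes differently. The paper reports fewer DMRs in every context, after leaving out regions with small changes over the time course. The overlaps below therefore concern the deposited lists and not the published set. A CHH DMR overlapped 8.40% of CAA/CTA-biased windows, against 73.0% of low-bias windows and 7.65% of all windows. A CHG DMR overlapped 42.1%, against 38.5% of low-bias windows and 9.10% of all, and a CG DMR 19.4%, against 24.5% and 8.05%. Seen from the lists, 14.6% of the 22441 CHH DMRs and 55.6% of the 10655 CHG DMRs held a CAA/CTA-biased window. CAA/CTA-biased windows outside the CHH DMRs still had 15.2% CHH in seedlings, against 20.7% in dry seed, and those within them 17.5% in seedlings, against 25.6% in dry seed.

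CAA/CTA-biased windows held 36.8% ± 0.663 of all methylated CHH calls of the 5 chromosomes in dry seed, 37.2% ± 0.455 after stratification, 36.4% ± 0.613 after 6 h of light, 36.1% ± 0.852 after 24 h of light and 38.7% ± 1.91 in seedlings. They made up between 9.08% and 11.8% of all CHH calls in each library, highest in 48 h SL replicate 1. Low-bias windows held 25.5% ± 0.541 of the methylated calls in dry seed and 21.4% ± 0.882 in seedlings. The difference between seedlings and dry seed in the share of the CAA/CTA-biased windows was about as large as the SD over the seedling libraries, and it was not tested.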

How the data were processed

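The authors trimmed single-end MethylC-seq reads with Trim Galore 0.4.2, aligned them to TAIR10 with Bismark 0.16.3 at default settings, removed duplicates and, per the file headers, deposited unnormalized counts of methylated and unmethylated calls for each cytosine and library. The other deposited values are start and end coordinates of DMRs, called by the authors with HOME and more numerous than the DMRs the paper reports. All positions and contexts matched TAIR10.1, whose RefSeq annotation was used. The windows and lists were chosen with earlier results of these data known.

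Calls were summed per 300-bp window. Group levels are means over windows with at least 20 calls in every library (10 for CAA and CTA and for other CHH), compared by exact 2-sided permutation tests with Benjamini-Hochberg adjustment. Single windows were tested with a quasi-binomial logistic model (numpy 2.4.6, at least 3 covered cytosines). Its dispersion was moderated by a re-implementation of limma's squeezeVar and floored at 1. The prior was set from windows with a mean binomial variance of at least 2, a choice made after seeing the data. The alternative on arcsine levels used limma 3.58.1. Windows printed with sequence were the deepest of each chromosome, the 3 of lowest adjusted p and any called higher. Runs and genes were those with most windows. Alternatives left out each library or changed the weights, call minimum, ratio, background, prior and test.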

Additional observations from a re-analysis of the deposited data

How the results depend on the processing

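The CHH difference at 48 h SL against 0 h lay between -6.43 and -5.20 points when 1 library was left out, that at 24 h SL between -2.21 and -1.61, that at 6 h SL between 0.18 and 0.58, that of CHG between -4.47 and -2.87 and that of CG between -5.20 and -4.20. With windows outside gene-poor bins the CG difference was -3.27 points. The 3 comparisons with the 9 libraries kept direction and call under every alternative run (17, 17 and 20 settings): without 1 library CHH differed by -5.90 to -4.68 points, the log2 ratio of CAA and CTA to other CHH by 0.095 to 0.15 and that of CAA/CTA-biased to low-bias windows by 0.30 to 0.34.

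The counts of single windows depend more on the settings. Without 1 library the count of lower windows was 6838 to 10837 in CHH, 34 to 146 in CHG and 1 to 469 in CG at 48 h SL, and 0 in CHH at 24 h SL. The libraries whose absence moved a count by over 1.5 times were 0 h replicates 1 and 3 and 48 h SL replicate 2 in CHH, and these with 0 h replicate 2 and 48 h SL replicate 3 in CHG and CG. With a fall of at least 20 points the counts were 27 in CHH, 10 in CHG and 4 in CG, and with at least 50 calls 49 in CHG and 80 in CG. A ratio of at least 3.5 left 6681 CHH windows. With the prior taken from all windows, an alternative chosen after seeing the data, the counts were 0 in CHG, 0 in CG and 20 in CHH at 24 h SL. Limma on arcsine levels gave 55 in CHG, 155 in CG and 242 in CHH at 24 h SL. The cause of these shifts was not tested, apart from the stricter rules, which leave fewer windows or libraries.

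Deviations of single windows showed no pairing by replicate number. They correlated at -0.016 to 0.017 between same-numbered libraries and at -0.018 to 0.016 between the others. A shift shared by all windows of a library does not enter these correlations, so a pairing of that kind was not tested. With the replicate block the counts were 11150 in CHH, 112 in CHG, 440 in CG and 0 in CHH at 24 h SL, and the differences in level stayed -5.71, -1.93, 0.36, -3.45 and -4.56 points. With 3 libraries a group the exact permutation test against dry seed cannot go below p = 0.1, and the depth of the shallowest library, a median of 148 CHH calls per window, limits what a single window can show.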
